A study of Mus musculus with 18 samples.

Results

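The 43 genes described here carry out chromosome duplication and cell division. They were set as a list, with earlier results of these data known: 21 act in S phase or at entry into it, and 22 act in mitosis. The shares of all genes given beside their counts are therefore descriptions and not tests of the list. The versioned gene IDs of the count files were matched to mouse symbols with the version removed, and all 43 were found among 54446 IDs. Counts came from 18 RNA-seq libraries of sorted osterix-derived mouse cells at postnatal day 21, in 6 groups of 3. Controls are labelled wild type, and the other mice are labelled conditional PTH1R KO (knockout here), PTH1R being the receptor that answers parathyroid hormone and its related protein. In each genotype 3 subsets were sorted: bone marrow stromal cells that were GFP-negative and positive for a marker written Tm (marrow), bone cells that were GFP-positive, and bone cells that were GFP-negative and Tm-positive. The series title places the knockout in osteoprogenitors. The driver of the recombinase, the reporter alleles and any pooling of animals are not given in the sources used here. The labels do not say whether replicates are different animals. Each p-value therefore measures the spread among these libraries only, which may be technical.

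Before a cell divides, E2F transcription factors switch on genes for licensing origins, making nucleotides and running the replication fork, and RB family proteins hold E2F back until G1 cyclin kinases release it. Mitotic genes follow later in the cycle under the DREAM complex and under MuvB with B-Myb and FoxM1, which act through the cell cycle homology region (CHR), while CCAAT boxes in such promoters are bound by NF-Y. Osterix-lineage progenitors and young growth cartilage divide, while mature bone-forming cells mostly do not.

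Promoters are shown first because the 2 lists hold these elements in different shares. RefSeq promoters on GRCm38.p6 (250 bases before to 50 after the start) were found for 35 of the 43 members, 17 S-phase and 18 mitotic. Both strands were searched for 4 E2F words (TTTGGCGC, TTTCGCGC, TTTGCCGC and TTTCCCGC), for CCAAT, and for the CHR words TTTGAA and TTTAAA. E2F words on opposite strands, and E2F and CCAAT words, can share bases. An E2F word was in 7 of 17 S-phase promoters (41.2%), in 1 of 18 mitotic promoters, that of Cdk1, and in 2.3% of all 27025 promoters. CCAAT was in 10 S-phase (58.8%) and 16 mitotic promoters (88.9%), against 37.9% of all. A CHR word was in 6 S-phase (35.3%) and 16 mitotic promoters (88.9%), against 27.8% of all. A CCAAT box together with a CHR word was in 15 of 18 mitotic promoters (83.3%), in 4 of 17 S-phase promoters (23.5%) and in 10.9% of all. These are letter matches and not measured binding.

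The 250 bases before the start are printed for 6 members, 5′ to 3′ on the gene's strand. Capitals mark the searched words on either strand, so a CCAAT on the other strand reads ATTGG. The first pair, Mcm5 and Mcm6, are helicase subunits with E2F words. The RefSeq regions are Mcm5 at chr8:75109259-75109508 on the plus strand and Mcm6 at chr1:128359706-128359955 on the minus strand.
Mcm5: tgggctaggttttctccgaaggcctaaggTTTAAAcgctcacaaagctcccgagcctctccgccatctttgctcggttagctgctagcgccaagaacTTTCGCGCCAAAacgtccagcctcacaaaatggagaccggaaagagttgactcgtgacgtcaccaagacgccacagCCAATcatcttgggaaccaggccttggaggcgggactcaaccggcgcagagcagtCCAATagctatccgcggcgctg
Mcm6: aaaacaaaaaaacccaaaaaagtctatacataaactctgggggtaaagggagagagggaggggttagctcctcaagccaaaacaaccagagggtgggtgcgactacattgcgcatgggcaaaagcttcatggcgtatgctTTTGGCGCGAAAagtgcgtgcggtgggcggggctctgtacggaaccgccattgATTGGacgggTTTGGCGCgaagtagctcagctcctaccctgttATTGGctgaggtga

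The next pair, the mitotic kinase Cdk1 and the ubiquitin-conjugating enzyme Ube2c, were lower in the knockout in all 3 subsets. The last pair, the proliferation antigen gene Mki67 and the kinetochore gene Cenpf, were not lower in any subset and were higher in GFP-positive bone. The regions are Cdk1 at chr10:69352913-69353162 on the minus strand, Ube2c at chr2:164769679-164769928 on the plus strand, Mki67 at chr7:135716380-135716629 on the minus strand and Cenpf at chr1:189688087-189688336 on the minus strand.
Cdk1: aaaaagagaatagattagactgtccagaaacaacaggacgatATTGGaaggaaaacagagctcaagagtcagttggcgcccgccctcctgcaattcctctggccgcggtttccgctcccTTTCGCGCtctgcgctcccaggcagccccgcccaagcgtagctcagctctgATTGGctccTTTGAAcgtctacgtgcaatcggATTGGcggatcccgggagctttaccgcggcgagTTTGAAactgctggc
Ube2c: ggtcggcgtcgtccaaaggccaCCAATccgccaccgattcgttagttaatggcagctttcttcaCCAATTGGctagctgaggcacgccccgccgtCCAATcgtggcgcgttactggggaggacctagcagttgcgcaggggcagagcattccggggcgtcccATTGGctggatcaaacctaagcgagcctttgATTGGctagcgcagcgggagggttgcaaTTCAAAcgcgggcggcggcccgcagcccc
Mki67: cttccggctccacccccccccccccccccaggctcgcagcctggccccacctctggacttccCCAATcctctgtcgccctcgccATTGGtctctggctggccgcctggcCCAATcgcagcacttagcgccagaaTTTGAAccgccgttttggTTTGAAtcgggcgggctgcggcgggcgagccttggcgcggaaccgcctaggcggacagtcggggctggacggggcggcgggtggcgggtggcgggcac
Cenpf: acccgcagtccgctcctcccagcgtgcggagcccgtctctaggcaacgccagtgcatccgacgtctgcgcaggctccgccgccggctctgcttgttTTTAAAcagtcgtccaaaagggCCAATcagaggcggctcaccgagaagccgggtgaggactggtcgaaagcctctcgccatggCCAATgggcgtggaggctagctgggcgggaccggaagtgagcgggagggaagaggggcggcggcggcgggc

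These 4 mitotic promoters all held CCAAT and a CHR word, both the pair that was lower and the pair that was not. Cdk1 alone of the 4 also held an E2F word.

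Total counts ran from 16443595 to 27160257 per library, and 3 counts, the limit that a count of 0 allows, stood for 0.0966 to 0.216 CPM (counts scaled to library size, here after the trimmed mean of M values, TMM). Pth1r, the targeted gene, was lower in the knockout of each subset, with log2 fold changes of -0.70 ± 0.13 (SE) in marrow, -0.52 ± 0.13 in GFP-positive bone and -0.56 ± 0.13 in GFP-negative bone. The 6 marrow stroma markers summed to 22791 to 31546 CPM in control marrow, and the 8 chondrocyte markers to 99323 to 122409 CPM in control GFP-positive bone. Lymphoid markers summed to at most 5.14 CPM and Ptprc, the pan-leukocyte marker, reached at most 2.52 CPM in any library. The 8 myeloid markers summed to 7.57 to 92.7 CPM, with the highest sums in control GFP-negative bone replicate 2 (92.7 CPM) and knockout GFP-positive bone replicates 2 (71.8 CPM) and 3 (69.7 CPM). In 3 libraries the summed markers of blood cells stood apart: erythroid markers were 521 CPM in control GFP-negative bone replicate 2 and 609 CPM in knockout GFP-positive bone replicate 2, and megakaryocyte markers were 220 CPM in knockout marrow replicate 2.

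All 43 members passed the filter on low counts, in a model with 15516 genes. In marrow the knockout had lower levels of most members: 16 of 21 S-phase and 14 of 22 mitotic members fell and none rose (edgeR quasi-likelihood test, Benjamini-Hochberg (BH) adjusted p under 0.05). Of all genes tested, 24.8% fell and 23.1% rose. The median log2 fold change was -0.67 over the S-phase members, -1.03 over the mitotic members and -0.04 over all genes. Scaling by library totals alone put the median of all genes at 0.08, and 12 S-phase and 12 mitotic members then fell, where 18.4% of all genes fell and 27.1% rose. Fewer dividing cells and less of these RNAs per cell cannot be told apart in bulk samples.

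Among the marrow S-phase members, Mcm5, a subunit of the replicative helicase, held 29.7, 35.8 and 24.5 CPM in the controls and 15.1, 10.6 and 13.4 CPM in the knockouts. Every knockout library lay below every control library, and the log2 fold change was -1.20 ± 0.18 (SE, 3 against 3 libraries, edgeR BH-adjusted p = 1.65e-05), 2.30-fold lower. Tyms, which makes thymidylate, went from 19.2, 20.5 and 18.5 CPM to 12.045, 10.5 and 10.2 CPM, again with no overlap (-0.83 ± 0.14). Mcm6 went from 59.8, 62.3 and 47.3 CPM to 37.5, 34.6 and 34.2 CPM (-0.67 ± 0.11), and these groups did not overlap either. Pcna, the sliding clamp, fell by less, from 41.1, 40.3 and 34.5 CPM to 28.5, 27.4 and 25.0 CPM (-0.52 ± 0.10). The helicase subunit Mcm2 had overlapping groups, 26.4, 30.3 and 18.3 CPM against 20.8, 13.8 and 14.6 CPM (-0.60 ± 0.22, edgeR BH-adjusted p = 0.0283).

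The other S-phase members lower in marrow were the helicase subunits Mcm3 (-0.54) and Mcm7 (-0.35), the helicase partners Cdc45 (-0.83) and Gins2 (-0.66), and the origin-licensing factor Cdc6 (-1.001). They also included geminin, the licensing inhibitor (Gmnn, -1.06), the ribonucleotide reductase subunits Rrm1 (-0.70) and Rrm2 (-0.92), the E-type cyclins Ccne1 (-0.84) and Ccne2 (-0.86), and E2f1 (-0.77). Not called were Mcm4 (-0.14), the licensing factor Cdt1 (-0.34), thymidine kinase Tk1 (-0.45), the chromatin remodeller Hells (-0.47) and the methylation maintenance factor Uhrf1 (-0.22).

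Among the marrow mitotic members, Cenpa, the centromeric histone H3 variant, held 17.9, 20.9 and 14.9 CPM in the controls and 6.89, 5.94 and 7.94 CPM in the knockouts. The groups were far apart, with a log2 fold change of -1.38 ± 0.16 (edgeR BH-adjusted p = 1.30e-06). Cdk1 went from 18.5, 16.8 and 13.1 CPM to 7.83, 7.28 and 4.09 CPM (-1.31 ± 0.19). Ube2c, which acts with the anaphase-promoting complex, went from 11.9, 13.9 and 10.6 CPM to 5.35, 3.66 and 2.16 CPM, the largest called fall of a member in marrow (-1.66 ± 0.24, 3.16-fold).

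The mitotic cyclins Ccna2 (-1.37), Ccnb1 (-1.17) and Ccnb2 (-1.36) fell in marrow, as did the kinases Aurka (-1.23), Aurkb (-0.73), Plk1 (-1.01) and Bub1 (-1.18). The chromosomal passenger subunit Birc5 (-1.29), the cytokinesis motor Kif23 (-1.29), the spindle protein Nusap1 (-0.71) and the anaphase activator Cdc20 (-1.05) completed the 14. Top2a, which untangles DNA, did not differ by the test, at 11.7, 11.1 and 9.67 CPM in controls and 10.6, 11.9 and 8.27 CPM in knockouts (-0.08 ± 0.17). Mki67 had low and variable counts: 0, 22 and 46 in the 3 control libraries and 138, 78 and 24 in the knockouts. In CPM the control values of Mki67 were 0, 0.941 and 2.19, where the count of 0 allows up to 0.112, and the knockout values were 4.44, 2.91 and 1.13. These groups overlapped and the gene was not called (1.61 ± 0.70, edgeR BH-adjusted p = 0.0681), although it was called without control replicate 3 or without knockout replicate 3.

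In marrow 14 S-phase and 15 mitotic members had no overlap between the groups with the knockout lower, where 28.6% of all genes tested did and 26.1% did so with the knockout higher. Without knockout marrow replicate 2, the library with megakaryocyte transcripts, 13 S-phase and 14 mitotic members fell. Other cell-type markers moved too: 6 of 7 osteoblast markers fell, with sums of 119967 to 177778 CPM in controls and 51543 to 71718 CPM in knockouts, and 5 of 6 stroma markers rose. Of 4 smooth muscle and pericyte markers 3 fell, with sums of 741 to 2475 CPM in controls and 166 to 221 CPM in knockouts. Chondrocyte markers moved in both directions, 4 higher and 2 lower of 8. Acp5 and Ctsk fell of 3 osteoclast markers tested, and Emcn fell of 4 endothelial markers tested, with no other call in these lists. The megakaryocyte markers Pf4, Ppbp and Itga2b were called higher, but the summed rise lay in knockout replicate 2 alone. Their list summed to 2.13, 220 and 3.05 CPM in the knockouts and to 2.52 to 4.48 CPM in the controls. Of 8 erythroid markers only Klf1 was called, lower in the knockout, and the erythroid sums were 80.8 to 131 CPM against 36.6 to 57.9 CPM. The part of these cells in the members' levels was not tested.

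**Figure D1:**
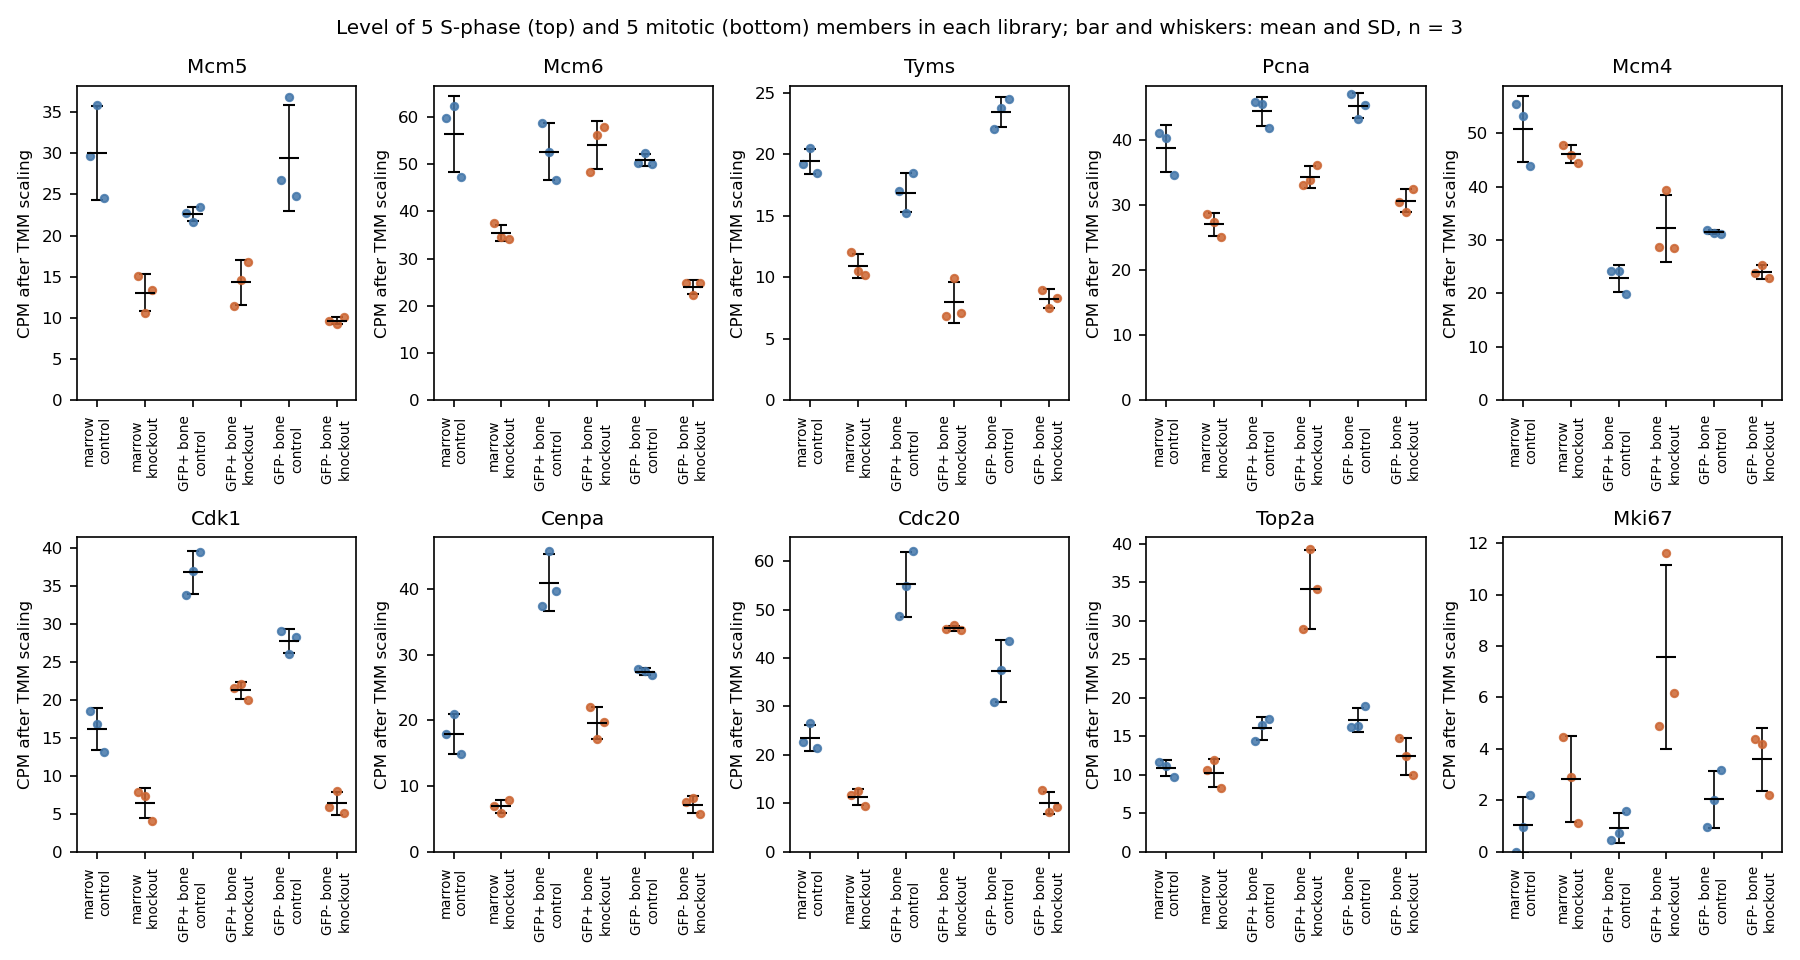
Level in CPM after TMM scaling (y axes, from 0) of 5 S-phase members (top row) and 5 mitotic members (bottom row) in each of 18 libraries, by subset and genotype (x axes). Points are libraries, blue for control and orange for knockout, and the bar with whiskers is the mean and SD of 3; Mcm5, Tyms, Pcna, Cdk1 and Cenpa did not overlap between genotypes in any subset and were lower in the knockout, while Top2a and Mki67 were highest in knockout GFP-positive bone.

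In GFP-negative bone the pattern was like that in marrow, with larger median differences. Of 21 S-phase members 17 fell, and of 22 mitotic members 17 fell, with none higher, where 25.7% of all genes fell and 21.5% rose (edgeR quasi-likelihood test). The medians were -1.09 and -1.52 on the log2 scale, beside -0.07 over all genes. Library totals alone put the median of all genes at -0.30, and 18 members of each list then fell, where 34% of all genes fell and 15.1% rose. The groups did not overlap for 18 S-phase and 18 mitotic members, all lower in the knockout, where 29.7% of all genes did so and 24.7% were higher without overlap.

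Tyms in GFP-negative bone held 22.1, 23.7 and 24.5 CPM in the controls and 8.99, 7.47 and 8.33 CPM in the knockouts (-1.50 ± 0.15, edgeR BH-adjusted p = 1.95e-07). Mcm5 went from 26.7, 36.8 and 24.8 CPM to 9.61, 9.28 and 10.1 CPM (-1.61 ± 0.19), and Mcm6 from 50.3, 52.4 and 50.2 CPM to 24.9, 22.3 and 24.8 CPM (-1.09 ± 0.12). In all 3 genes the knockout libraries lay well below the controls. Pcna held 47.1, 43.2 and 45.4 CPM against 30.5, 28.9 and 32.5 CPM (-0.56 ± 0.10), and Mcm2 20.2, 33.4 and 28.6 CPM against 13.4, 13.9 and 14.99 CPM (-0.97 ± 0.23), again with no overlap.

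The largest falls among the other S-phase members in GFP-negative bone were those of Gmnn (-1.75), Cdc45 (-1.70), Rrm2 (-1.55), Tk1 (-1.44), Gins2 (-1.27) and Hells (-1.23). Ccne2 (-1.16), Mcm3 (-1.13), E2f1 (-0.83), Rrm1 (-0.73), Mcm7 (-0.53) and Mcm4 (-0.39) also fell. Cdc6 (-0.93), Uhrf1 (-0.37), Ccne1 (-0.18) and Cdt1 (0.34) were not called. Ccne1 was thus called in marrow and not here, but the difference of its knockout effect between the subsets was not called.

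Cdk1 in GFP-negative bone held 29.0, 26.0 and 28.2 CPM in the controls and 5.89, 8.04 and 5.10 CPM in the knockouts (-2.11 ± 0.20, 4.33-fold lower, edgeR BH-adjusted p = 1.08e-07). Cenpa went from 27.9, 27.6 and 26.8 CPM to 7.60, 8.14 and 5.75 CPM (-1.92 ± 0.17). Cdc20, which triggers anaphase, went from 30.9, 37.5 and 43.6 CPM to 12.7, 8.19 and 9.24 CPM (-1.89 ± 0.17). None of these groups overlapped. Ube2c (-2.13), Plk1 (-2.10), Aurka (-2.09), Birc5 (-1.91), Bub1 (-1.85) and Ccnb1 (-1.84) fell by similar amounts. Ccnb2 (-1.63), Aurkb (-1.62), Ccna2 (-1.41), Nusap1 (-1.31), the spindle motor Kif20a (-1.17), the spindle assembly factor Tpx2 (-1.06) and the checkpoint kinase Bub1b (-0.93) fell as well.

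Top2a fell less in GFP-negative bone, from 16.2, 16.3 and 18.9 CPM to 14.7, 12.5 and 9.95 CPM, without overlap (-0.46 ± 0.17, edgeR BH-adjusted p = 0.0331). Mki67 held 0.941, 1.99 and 3.18 CPM in the controls and 4.39, 4.17 and 2.20 CPM in the knockouts, with overlapping groups and no call (0.83 ± 0.66). Cenpe (0.62), Cenpf (0.00), Kif11 (-0.63) and Kif23 (-0.61) were not called either, though Kif23 was called with a replicate block. Without control replicate 2, which held the erythroid transcripts, 17 S-phase and 16 mitotic members fell. Of the markers, 6 of 6 stroma genes rose in the knockout, and of 8 chondrocyte genes 4 fell and 1, Col10a1, rose. Of 7 osteoblast genes Col1a1 and Runx2 rose. Of 4 endothelial genes tested Pecam1 and Kdr were called higher, at low levels. Pecam1 overlapped between the groups, at 0 to 0.577 CPM in controls and 0.413 to 6.60 CPM in knockouts. Of 3 osteoclast genes tested Acp5 and Ocstamp were called lower, Ocstamp from 0 to 0.840 CPM in controls to 0 in knockouts. Ctsk was not called, at 317 to 353 CPM in controls and 303 to 333 CPM in knockouts. The smooth muscle and pericyte genes Acta2 and Rgs5 fell too, and the 4 markers of that list summed to 316 to 425 CPM in controls and 106 to 137 CPM in knockouts. No erythroid, myeloid, lymphoid or megakaryocyte marker was called here, and the part of these cells in the members' levels was not tested.

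In GFP-positive bone 12 S-phase members fell and 1 rose, and 9 mitotic members fell and 5 rose. Of all genes, 25.3% fell and 26% rose there (edgeR quasi-likelihood test). The members that rose were thus no larger a share of their lists than of all genes. The medians were -0.45 and -0.48 on the log2 scale, beside 0.03 over all genes. Under library totals alone the median of all genes was -0.34, and 16 S-phase members fell and none rose, and 13 mitotic members fell and 5 rose, where 38.2% of all genes fell and 17% rose. Groups without overlap numbered 12 lower and 2 higher among S-phase members, and 10 lower and 5 higher among mitotic members, where 28.8% of all genes lay in each direction.

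Tyms in GFP-positive bone held 16.99, 15.2 and 18.4 CPM in the controls and 6.85, 9.89 and 7.12 CPM in the knockouts (-1.07 ± 0.15, edgeR BH-adjusted p = 7.19e-06). Gins2 went from 10.4, 9.75 and 9.44 CPM to 5.76, 4.46 and 4.10 CPM (-1.03 ± 0.21), and Cdc45 from 7.75, 7.18 and 10.9 CPM to 3.02, 5.97 and 4.82 CPM (-0.91 ± 0.23). All 3 had no overlap. Gmnn (-0.89), Tk1 (-0.89), E2f1 (-0.85), Ccne2 (-0.76), Mcm5 (-0.67), Rrm2 (-0.65), Ccne1 (-0.64), Rrm1 (-0.39) and Pcna (-0.37) made up the 12. Pcna held 45.8, 45.5 and 41.8 CPM against 33.0, 33.8 and 36.1 CPM, and Mcm2, with overlapping groups of 22.8, 17.5 and 19.6 CPM against 14.5, 18.4 and 10.3 CPM, was not called (-0.45).

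The helicase subunits did not move together in GFP-positive bone. Mcm4 rose, from 24.2, 24.3 and 19.9 CPM to 28.6, 39.4 and 28.4 CPM, without overlap (0.50 ± 0.13, edgeR BH-adjusted p = 0.0033). Mcm6 stayed without a call (0.04 ± 0.11), at 58.8, 52.6 and 46.6 CPM against 48.3, 56.2 and 57.9 CPM. Mcm5 fell, Mcm3 (-0.38) and Mcm7 (-0.11) were not called, and Uhrf1 (0.47), Cdt1 (0.11), Cdc6 (0.13) and Hells (-0.04) were not called. Under library totals alone Mcm4 was no longer called, and Mcm6 then turned to -0.34. The count of 12 lower S-phase members was 7 without knockout replicate 1.

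Of the mitotic members in GFP-positive bone, Cenpa fell from 37.3, 45.8 and 39.7 CPM to 22.02, 17.1 and 19.7 CPM (-1.06 ± 0.15, edgeR BH-adjusted p = 5.95e-06). Cdk1 fell from 33.8, 37.0 and 39.4 CPM to 21.5, 22.1 and 20.01 CPM (-0.79 ± 0.17). Neither gene had overlapping groups. Birc5 (-0.92), Ube2c (-0.83), Plk1 (-0.76), Ccnb2 (-0.70), Ccnb1 (-0.68), Ccna2 (-0.54) and Aurka (-0.51) also fell.

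The 5 mitotic members that rose in GFP-positive bone were Cenpf, Mki67, Cenpe, Kif11 and Top2a. Cenpf, a kinetochore protein, held 0.570, 0.750 and 0.530 CPM in the controls and 6.17, 6.35 and 3.81 CPM in the knockouts (3.15 ± 0.38, edgeR BH-adjusted p = 1.27e-06). Mki67 went from 0.456, 0.710 and 1.59 CPM to 4.89, 11.6 and 6.19 CPM (3.12 ± 0.64, edgeR BH-adjusted p = 5.56e-04). Every knockout library lay above every control library in both genes, and the knockout counts of Mki67 were 107, 240 and 86 against 12, 18 and 33.

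Top2a was the most abundant of the 5, both in CPM and per kilobase, and went from 14.4, 16.5 and 17.2 CPM to 28.9, 39.2 and 34.0 CPM (1.09 ± 0.16, 2.13-fold higher). Cenpe, a kinetochore motor, went from 2.17, 0.631 and 0.963 CPM to 4.02, 9.99 and 3.17 CPM (2.20 ± 0.52), without overlap. Kif11, the motor that separates spindle poles, went from 2.77, 2.68 and 5.78 CPM to 5.39, 18.1 and 8.56 CPM (1.56 ± 0.45), and its groups overlapped. Knockout replicate 2, the library with erythroid transcripts, was the highest of all 6 libraries for each of the 5. Without it 14 S-phase members fell and 1 rose, and 10 mitotic members fell and 4 rose, Kif11 no longer being called (0.89, edgeR BH-adjusted p = 0.113).

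Cdc20 (-0.26), Aurkb (-0.53), Bub1 (-0.48), Kif20a (-0.48), Nusap1 (-0.08), Bub1b (0.16), Kif23 (0.18) and Tpx2 (0.49) were not called in GFP-positive bone. Cartilage RNA took a larger share there: the 8 chondrocyte markers summed to 302151 to 334258 CPM in the knockouts against 99323 to 122409 CPM in the controls, with 6 markers higher and 2 lower. All 6 stroma markers rose, with sums of 129 to 157 CPM in controls and 458 to 649 CPM in knockouts, and of 7 osteoblast markers 3 rose and 1 fell. Of 8 myeloid markers Ptprc and Cd68 rose, Ptprc with overlapping groups (0.144 to 0.760 CPM in controls, 0.457 to 2.52 CPM in knockouts). Of 8 erythroid markers only Slc4a1 was called, higher in the knockout. Its groups overlapped, at 2.39 to 3.996 CPM in controls and 1.64 to 50.7 CPM in knockouts. The erythroid sums were 126 to 152 CPM in controls and 44.8, 609 and 165 CPM in knockouts. The 1 muscle marker tested, Acta1, rose, and of 3 osteoclast markers tested Acp5 and Ctsk fell. The myeloid sums were 18.7 to 54.7 CPM in controls and 18.9 to 71.8 CPM in knockouts. The part of these cells in the members' levels was not tested.

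**Figure D2:**
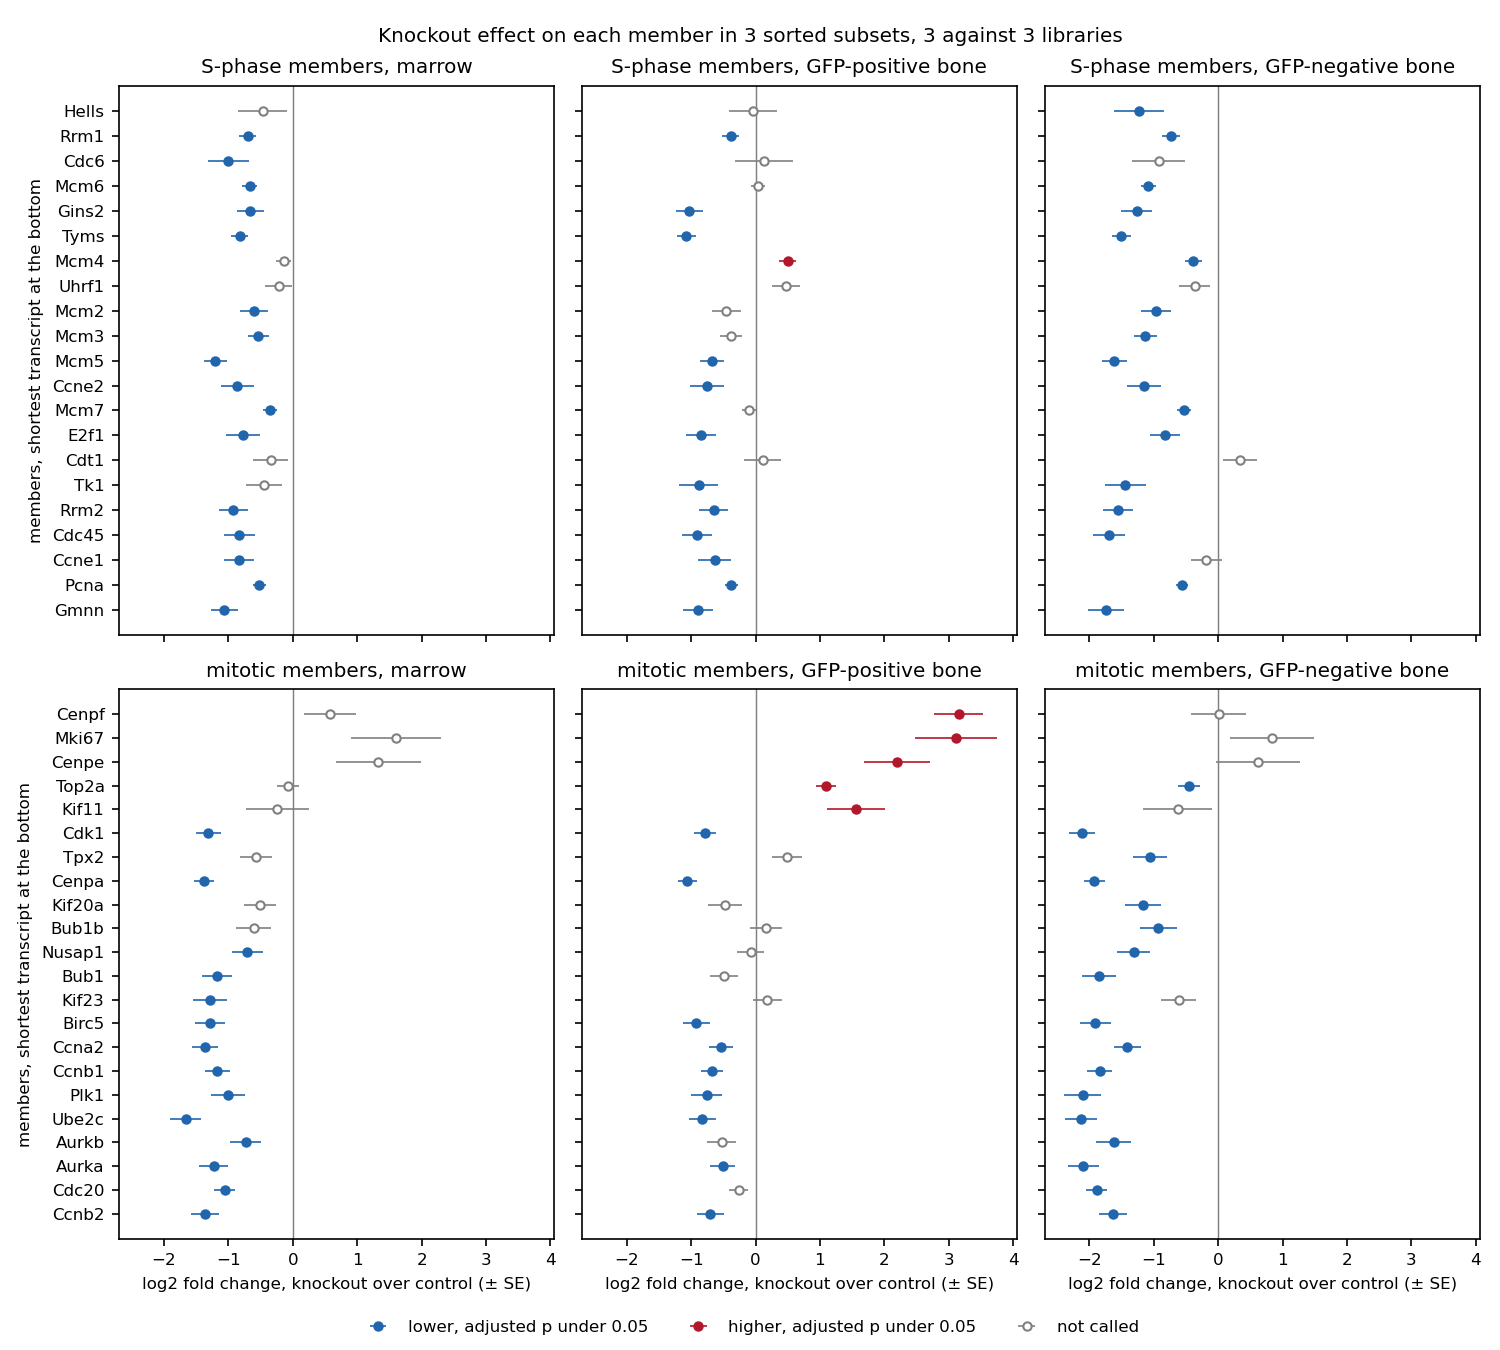
Log2 fold change of knockout over control (x axis, whiskers ± SE, 3 against 3 libraries) for the S-phase members (top) and mitotic members (bottom) in 3 subsets. Members are ordered by their longest annotated transcript, shortest at the bottom; filled blue points fell, filled red points rose and open points were not called, and the 5 red mitotic members in GFP-positive bone are the 5 with the longest transcripts.

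The 5 mitotic members that rose were those with the longest transcripts of their list: Cenpf (11130 bases), Mki67 (10061), Cenpe (7910), Top2a (5221) and Kif11 (4819), in GENCODE annotation. Over all 15511 genes with a length, the knockout difference rose with transcript length, with a Spearman correlation of 0.41 in marrow, 0.44 in GFP-positive bone and 0.44 in GFP-negative bone, a description across genes that share their libraries. Over the 22 mitotic members the correlations were 0.64, 0.61 and 0.65, and over the 21 S-phase members 0.18, 0.34 and 0.10. Of the longest S-phase members in GFP-positive bone, Hells (5868 bases) was at -0.04 without a call, and Rrm1 (5475 bases) was called lower at -0.39. The next longest, Cdc6 (4802 bases) and Mcm6 (4355 bases), had small positive values without a call.

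Cenpf, Mki67 and Cenpe, the longest of these genes, had low levels per length in the controls. In control GFP-positive bone the mean was 0.0399 ± 0.0076 CPM per kilobase of merged exons for Cenpf and 0.0913 ± 0.0591 for Mki67 (SD, n = 3), the lowest 2 of the 43, with Cenpe next at 0.145. Top2a was at 1.78 ± 0.165, Cdk1 at 7.44 ± 0.573 and Cdc20 at 29.5 ± 3.63 CPM per kilobase, the last being the highest of the 43. In the knockout of that subset Cenpf was at 0.353 ± 0.0917 and Mki67 at 0.753 ± 0.356 CPM per kilobase, still below Top2a at 3.78 ± 0.572.

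A fit that took out the length trend of each library changed the calls of these members. In GFP-positive bone Mki67 (1.91 ± 0.66, edgeR BH-adjusted p = 0.0252) and Cenpf (1.92 ± 0.39) were still called higher, while Cenpe (1.09), Kif11 (0.997) and Top2a (0.40, edgeR BH-adjusted p = 0.0522) were not. In total 8 mitotic members fell and 2 rose, and 11 S-phase members fell and 1, Mcm4, rose, where 27.4% of all genes fell and 16.9% rose and the median of all genes was -0.11. Mcm6 turned from 0.04 to -0.35 and was then called lower, as were Mcm3 and Bub1. Pcna (-0.13), Rrm2 (-0.49), Ccne1 (-0.44), Ccnb2 (-0.46) and Aurka (-0.31) lost their calls as lower. After the correction by longest transcript, the correlation over the mitotic members was 0.46 in GFP-positive bone, against 0.05 over all genes. Over the S-phase members it was then -0.22 in that subset, -0.49 in marrow and -0.39 in GFP-negative bone.

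In marrow the length-corrected fit gave 11 S-phase and 15 mitotic members lower and none higher, where 20.9% of all genes fell and 18.6% rose. Hells, Top2a (-0.48) and Tpx2 (-0.73) were then called lower, and Mcm2, Mcm7, Pcna, Cdc45, E2f1, Ccne1 and Aurkb were not called. In GFP-negative bone 17 S-phase and 17 mitotic members fell, where 22.3% of all genes fell and 15.6% rose, and Top2a fell by 0.96 on the log2 scale. There Cdc6 gained a call and Pcna (-0.19) lost its call, as it did in the other subsets. Mki67 after correction was at 0.83 ± 0.70 in marrow and -0.04 ± 0.66 in GFP-negative bone, without a call. What produced the length trend in these libraries was not tested.

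**Figure D3:**
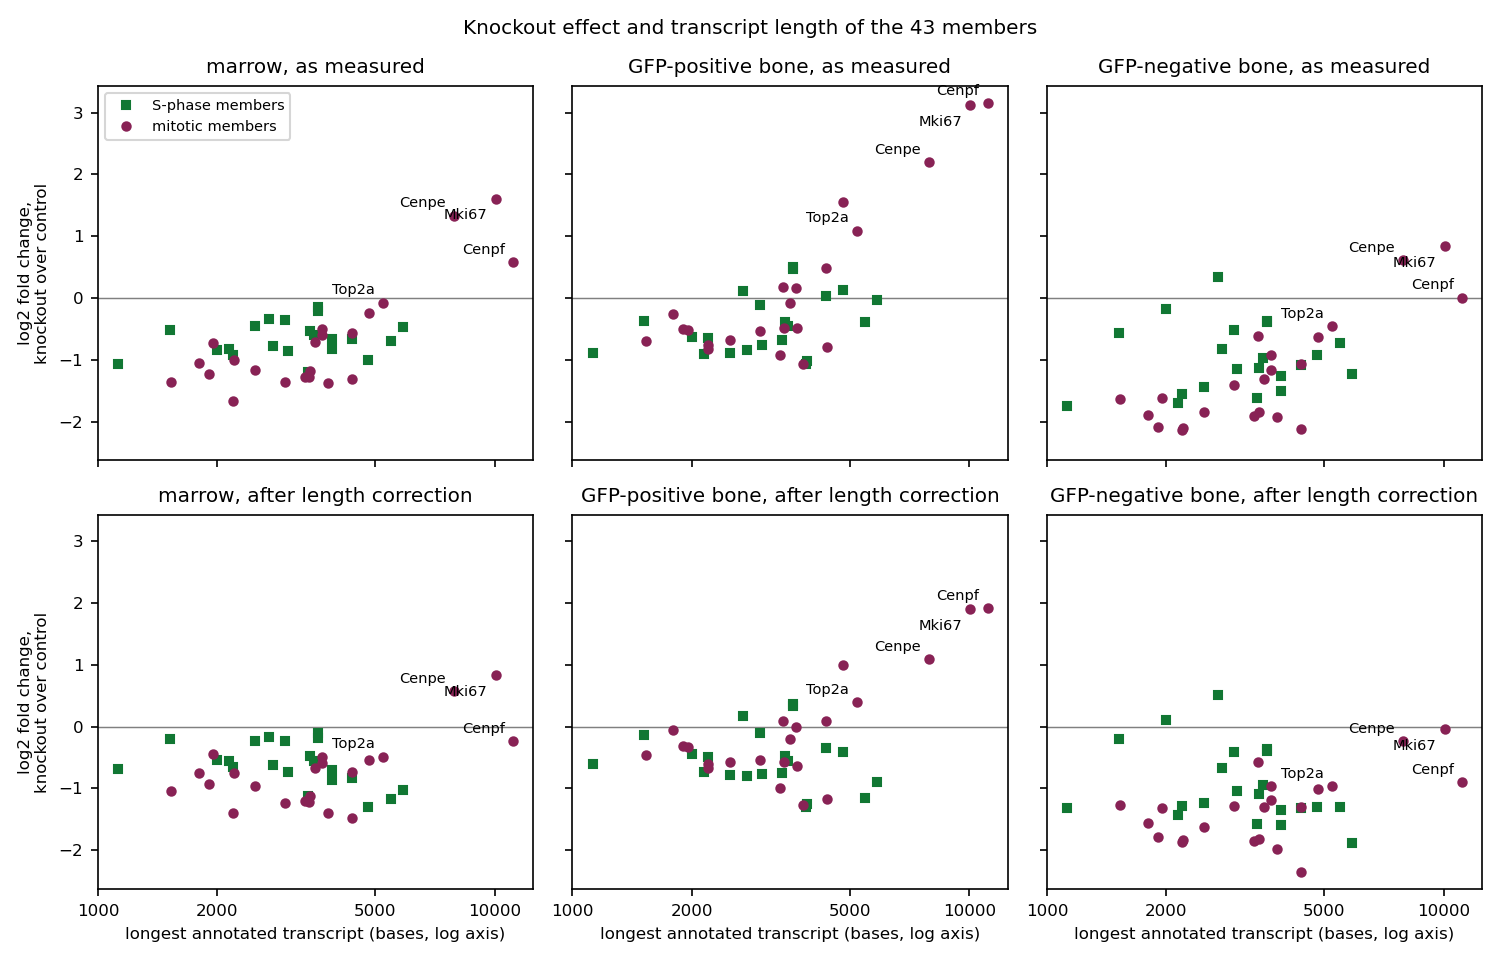
Log2 fold change of knockout over control (y axis) against the longest annotated transcript (x axis, log scale) of the 21 S-phase (green squares) and 22 mitotic members (purple circles) in 3 subsets, as measured (top) and after the length trend of each library was taken out (bottom). Mki67 and Cenpf in GFP-positive bone go from 3.12 and 3.15 to 1.91 and 1.92, and Top2a from 1.09 to 0.40.

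Members lower in all 3 subsets without length correction were 10 of 21 S-phase members (Ccne2, Cdc45, E2f1, Gins2, Gmnn, Mcm5, Pcna, Rrm1, Rrm2 and Tyms) and 9 of 22 mitotic members (Aurka, Birc5, Ccna2, Ccnb1, Ccnb2, Cdk1, Cenpa, Plk1 and Ube2c). With length correction Pcna, Cdc45, E2f1, Rrm2, Aurka and Ccnb2 each lost the call in at least 1 subset. Cdt1 and Uhrf1 among the S-phase members, and Cenpe, Cenpf, Kif11 and Mki67 among the mitotic members, were lower in none. Cdt1, whose protein is kept out of S phase by geminin and degradation, held 7.77 to 11.5 CPM in control and 5.12 to 11.4 CPM in knockout marrow. For Gins2, 67.3% of its exon bases overlap its antisense neighbour Gse1, for Kif20a 33.2% overlap Cdc23, and for Ube2c 22.8% overlap Tnnc2. Whether counting used strand is not given, so these values may hold reads of the neighbour. Pcna, Tyms, Ccnb1 and Ccnb2 have annotated pseudogene copies, and how reads matching both were counted is not given either.

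The difference of the knockout effect was tested between subsets in the same model, in 3 comparisons that share libraries. Between GFP-positive and GFP-negative bone, 3 of 21 S-phase and 12 of 22 mitotic members differed, all with the higher value in GFP-positive bone, where 4.98% of all genes differed in that direction and 1.11% in the other. Cdc20 differed by 1.63 ± 0.22 on the log2 scale (edgeR BH-adjusted p = 1.45e-04). In GFP-positive bone it held 48.6, 54.8 and 62.2 CPM in the controls and 45.9, 46.7 and 45.8 CPM in the knockouts, close together beside the wide gap in GFP-negative bone. Top2a differed by 1.55 ± 0.23, Cenpf by 3.15 ± 0.59, Aurka by 1.59 ± 0.31, Cdk1 by 1.33 ± 0.26 and Tpx2 by 1.55 ± 0.35. Ccnb1, Ube2c, Bub1, Plk1, Nusap1 and Cenpa made up the 12, from 0.86 to 1.37, and a replicate block added Ccnb2 and Birc5. The S-phase members were Mcm6 (1.12 ± 0.16), Mcm4 (0.89 ± 0.19) and Mcm5 (0.94 ± 0.26). Mki67, although called higher in the knockout of GFP-positive bone alone, did not pass this test (2.28 ± 0.97, edgeR BH-adjusted p = 0.199).

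With length correction 2 S-phase and 9 mitotic members differed between the bone subsets, where 3.27% of all genes were higher in GFP-positive bone and 2.57% lower. When scaled by totals alone, 2.95% were higher and 1.79% lower, and 2 S-phase and 8 mitotic members were called. After length correction Cdc20 (1.51 ± 0.22), Aurka (1.47 ± 0.32), Top2a (1.36 ± 0.24), Cdk1 (1.17 ± 0.26) and Mcm6 (0.97 ± 0.16) were among them. The S-phase median of the differences was 0.56 and the mitotic median 1.32 before correction.

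Between GFP-positive bone and marrow, 2 S-phase members (Mcm6, 0.71 ± 0.16, and Mcm4, 0.64 ± 0.18) and 6 mitotic members differed, all with the higher value in GFP-positive bone, where 10.8% of all genes did and 7.6% were lower, so that the S-phase count was near the share of all genes. By library totals alone, where 4.94% of all genes were higher and 31.7% lower, Mcm4, Mcm6, Ccna2, Cdc20 and Tpx2 were not called, and Tyms and Gins2 were called lower in GFP-positive bone. With length correction 7.84% of all genes were higher and 13.5% lower, and Mcm4 (0.47), Ccna2 (0.70) and Tpx2 (0.83) were not called. Without that correction the mitotic members were Cenpf (2.58 ± 0.59), Kif23 (1.47 ± 0.35), Top2a (1.16 ± 0.23), Tpx2 (1.06 ± 0.34), Ccna2 (0.83 ± 0.28) and Cdc20 (0.80 ± 0.22), and a replicate block added Aurka. Between GFP-negative bone and marrow, Tyms (-0.68 ± 0.20, edgeR BH-adjusted p = 0.0485) and Cdc20 (-0.83 ± 0.23, edgeR BH-adjusted p = 0.0331) differed, with the stronger fall in bone, where 3.31% of all genes were lower and 4.49% higher. The call of Tyms was lost when any 1 of the 12 libraries was left out and with a replicate block, which added Plk1, and the call of Cdc20 was lost in 8 of the 12 fits that left out 1 library. Scaled by library totals alone, 12 S-phase and 10 mitotic members differed in this comparison, where 21.5% of all genes were then lower and 2.63% higher.

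In the controls many mitotic members were more abundant in bone than in marrow, in comparisons that share control libraries. In GFP-positive bone against marrow 12 of 22 mitotic members were higher and none lower, and of the S-phase members 3 were higher and 6 lower, where 29.8% of all genes were higher and 33% lower (edgeR quasi-likelihood test). Cenpa was higher by 1.19 ± 0.14 on the log2 scale, Cdc20 by 1.23 ± 0.15, Ccnb1 by 1.32 ± 0.17, Aurka by 1.25 ± 0.20 and Cdk1 by 1.18 ± 0.17. Cdc20 held 22.6, 26.6 and 21.5 CPM in control marrow, less than in any control bone library, and Cenpa and Cdk1 did not overlap between these subsets either. Ube2c (1.15), Birc5 (0.91), Nusap1 (0.90), Aurkb (0.78), Plk1 (0.75), Ccna2 (0.60) and Top2a (0.56) completed the list, and a replicate block added Ccnb2 and Kif23.

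The S-phase calls of that comparison were no more frequent than those of all genes. Mcm4 was lower in control GFP-positive bone, at 24.2, 24.3 and 19.9 CPM against 55.5, 53.1 and 43.8 CPM in marrow (-1.16 ± 0.13, edgeR BH-adjusted p = 2.03e-07), and Cdc6 was lower, at 2.58, 1.18 and 1.78 CPM against 6.89, 7.87 and 4.19 CPM (-1.77 ± 0.36). Neither pair of groups overlapped. Mcm3 (-0.54), Mcm7 (-0.43), Mcm5 (-0.41) and Uhrf1 (-0.56) were lower too, while E2f1 (1.05), Rrm2 (0.68) and Cdc45 (0.57) were higher. Without control marrow replicate 1 the count of 9 called was 5.

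In control GFP-negative bone against marrow 9 mitotic members were higher and none lower, and 3 S-phase members were higher and 1 lower, where 21.1% of all genes were higher and 18.2% lower. E2f1 held 14.7, 12.5 and 13.1 CPM in bone against 4.72, 6.84 and 5.53 CPM in marrow (1.24 ± 0.23), without overlap. Cdk1 was higher by 0.77 ± 0.18 and Cdc20 by 0.66 ± 0.15, and Mcm4 was lower by -0.69 ± 0.13, at 31.9, 31.3 and 31.2 CPM in bone. A replicate block added Ccnb2 and Nusap1. With library totals alone, where 11.7% of all genes were higher and 30.7% lower, 2 mitotic members, Cdk1 and Cdc20, were called.

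Between the control bone subsets 4 S-phase members were lower in GFP-positive cells and none higher, and 4 mitotic members were higher and 1, Cenpf, lower, where 18.2% of all genes were higher and 21.8% lower. Mcm3 held 19.2, 18.6 and 22.9 CPM in GFP-positive and 35.1, 31.4 and 26.9 CPM in GFP-negative cells (-0.63 ± 0.17). Mcm4 (-0.46 ± 0.13), Tyms (-0.47 ± 0.14) and Cdc6 (-1.06 ± 0.40) were lower as well. Cenpa (0.58 ± 0.14), Cdc20 (0.56 ± 0.15), Ccnb1 (0.62 ± 0.17) and Aurka (0.56 ± 0.19) were higher, and a replicate block added Cdk1. With library totals alone, where 26.6% of all genes were higher and 16.2% lower, no S-phase member and 10 mitotic members were called here.

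Summed over members, the S-phase genes held 531, 534 and 407 CPM in control marrow, 456, 436 and 437 CPM in control GFP-positive bone and 501, 517 and 519 CPM in control GFP-negative bone. In the knockouts the sums were 375, 300 and 295 CPM, then 312, 394 and 349 CPM, then 273, 283 and 273 CPM. Each knockout library lay below each control library of its subset, and the most abundant members weigh most in such sums.

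The mitotic sums were 239, 265 and 227 CPM in control marrow, 385, 453 and 483 CPM in control GFP-positive bone and 321, 354 and 384 CPM in control GFP-negative bone. The knockouts held 150, 132 and 89.9 CPM in marrow and 142, 134 and 98.9 CPM in GFP-negative bone, far below their controls. In knockout GFP-positive bone the mitotic sums of 331, 397 and 346 CPM overlapped the control values. The ratio of mitotic to S-phase sums was 0.502 ± 0.0539 (SD, n = 3) in control and 0.382 ± 0.0697 in knockout marrow. It was 0.996 ± 0.135 and 1.02 ± 0.0368 in GFP-positive bone and 0.688 ± 0.0502 and 0.452 ± 0.0804 in GFP-negative bone. No test was run on these sums, as the members were chosen with results known.

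**Figure D4:**
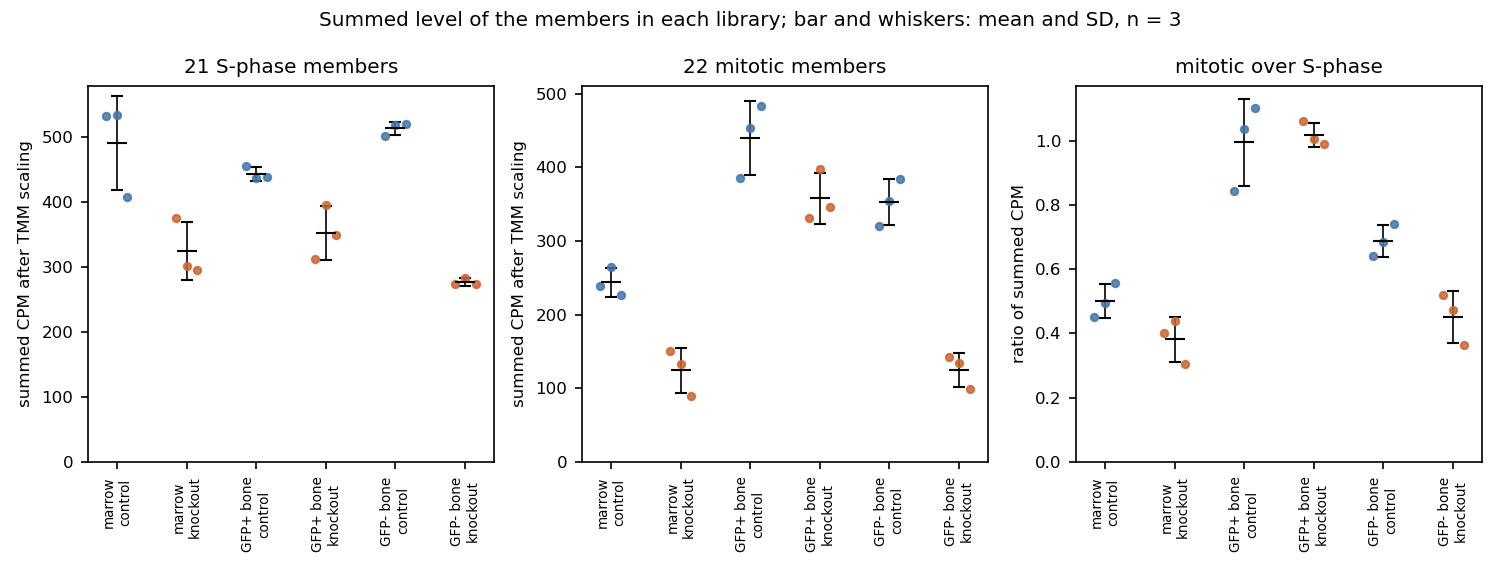
Summed level of the 21 S-phase members (left), of the 22 mitotic members (middle) and the ratio of both sums (right) in each of 18 libraries; y axes start at 0 and are CPM after TMM scaling, or a ratio. Points are libraries (blue control, orange knockout), with mean and SD of 3; the mitotic sums of knockout marrow and knockout GFP-negative bone lie between 89.9 and 150 CPM, and those of knockout GFP-positive bone between 331 and 397 CPM.

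Other genes of the pathway, none of them members, were counted by list. Of 34 replication fork and origin factors 15 fell and 2 rose in marrow, 18 fell and 3 rose in GFP-positive bone and 22 fell and 1 rose in GFP-negative bone. Of all genes 24.8% fell and 23.1% rose in marrow, 25.3% and 26% in GFP-positive bone and 25.7% and 21.5% in GFP-negative bone, with medians of -0.04, 0.03 and -0.07 on the log2 scale. The medians of these 34 factors were -0.43, -0.54 and -0.83. In the order marrow, GFP-positive bone and GFP-negative bone, the log2 fold changes of the clamp loader subunit Rfc2 were -1.05, -0.88 and -0.92, and those of Dut, which clears dUTP, -0.71, -0.83 and -1.05, all called. The polymerase delta subunit Pold2 (-0.38, -0.68 and -1.02) and the GINS subunit Gins4 (-0.56, -0.997 and -0.80) fell in all 3 as well, and Rpa3, of the single-strand binding complex, fell in both bone subsets (-1.07 and -1.26). Rfc1, the large clamp loader subunit, rose in all 3 subsets (1.26, 1.499 and 1.37).

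Of 44 other spindle, kinetochore, condensin and cytokinesis genes 20 fell and none rose in marrow, 12 fell and 11 rose in GFP-positive bone and 23 fell and 1 rose in GFP-negative bone. The medians were -0.54, 0.12 and -0.90 on the log2 scale. In GFP-positive bone both counts were near the 25.3% and 26% of all genes. The kinetochore genes Spc24 (-1.52) and Spc25 (-1.41) and the passenger subunit Cdca8 (-1.22) fell in marrow, and the mitotic kinase Pbk (-2.60), Cdca8 (-2.10) and Spc25 (-2.02) fell in GFP-negative bone. In GFP-positive bone the spindle pole gene Aspm (2.51) and separase, Espl1 (2.23), rose, while the checkpoint gene Mad2l1 fell (-0.80).

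Of the upstream regulators, Cdk4, the kinase of the D-type cyclins, fell in all 3 subsets, by 0.78 in marrow, 0.89 in GFP-positive and 0.98 in GFP-negative bone on the log2 scale. Cdk2, its S-phase counterpart, fell in all 3 as well (-0.34, -0.57 and -0.44), and Ccnd1, a D-type cyclin, fell in marrow (-1.32) and GFP-negative bone (-0.87), while Ccnd3 rose in marrow (0.46). Of 6 G1 cyclins and kinases 3 fell and 1 rose in marrow, 2 fell in GFP-positive bone and 3 fell in GFP-negative bone, beside the shares of all genes given above.

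Of 7 inhibitors of cyclin-dependent kinases, Cdkn1c (1.15 ± 0.17) and Cdkn1a (0.62 ± 0.18) rose in marrow and none fell. In GFP-positive bone Cdkn2c (-0.48) and Cdkn2d (-0.35) fell, and in GFP-negative bone Cdkn2c (-1.19), Cdkn2d (-0.87) and Cdkn1c (-0.93) fell, with none higher in either; of so few genes these counts are not read against all genes. Of 19 RB, E2F and DREAM regulators 1 fell and 3 rose in marrow, 3 fell and 6 rose in GFP-positive bone and 5 fell and 2 rose in GFP-negative bone, near or below the shares of all genes in each direction. Rbl2, the pocket protein p130 of the quiescent DREAM complex, rose in all 3 subsets (0.99, 0.78 and 1.46), without a call in GFP-positive bone after length correction (0.20). Tfdp1, the E2F partner, fell in all 3 (-0.23, -0.54 and -0.60), and in GFP-positive bone Tfdp2 rose (0.75) and E2f6, a repressive E2F, fell (-1.05). E2f3 (0.77) and Lin54 (0.60) rose in marrow, and Mybl2, which encodes B-Myb, fell in GFP-negative bone (-1.38). With length correction E2f3 and Lin54 in marrow and Tfdp2 in GFP-positive bone (-0.31) were not called.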

How the data were processed

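RNA-seq counts per gene of 18 libraries, 6 groups of 3, were used. The authors deposited raw read counts, made with featureCounts per the file headers, whose length column gives the merged exon length of each gene. STAR, featureCounts, DESeq2 and the build mm10 are named in the submitters' processing notes. The strand setting, the treatment of reads with several matches and the annotation release are not given in the sources used here. Total counts ran from 16443595 to 27160257 per library.

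From the counts, edgeR 4.0.16 in R 4.3.3 (limma 3.58.1) fitted 6 group means to all 18 libraries with TMM scaling, with filterByExpr set to a count of 10 and a total of 15 and 15516 genes kept. Quasi-likelihood F-tests, two-sided, were adjusted by Benjamini-Hochberg over all genes tested, with a threshold of 0.05, and SE is the log2 fold change over the square root of F. Levels are CPM after TMM scaling. Of 54446 gene IDs 54409 matched a symbol. Alternatives were DESeq2 1.42.0, library totals alone, no filter, a length correction (a loess curve of span 0.3 per library on the longest annotated transcript, used as an offset), a replicate block, both together, and leaving out each library. In the knockout comparisons the block gave each replicate number an effect shared by both genotypes. In the other comparisons it gave an effect within each genotype. A length correction by merged exon length was chosen after seeing the data. The fits were tested on simulated data. Replicate pairs differed beyond sampling noise, with a chi-square per degree of freedom of 14.9 to 55.9, so no library was counted as a copy.

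Members with the 3 smallest p per list in each knockout comparison, Mki67, Top2a, Pcna, Mcm2, members called against the direction of their list, and up to 2 members per list in the other comparisons were given in every library. Up to 3 genes of each other pathway list were named by smallest p. The members and lists were chosen with earlier results of these data known. Same-numbered replicates of the subsets within a genotype deviated together (correlations 0.101 to 0.362 over 8115 genes). The labels give no pairing, and the block assumed from these values that numbers pair subsets within a genotype. Whether they do was not tested. Between genotypes the correlations ran from -0.150 to 0.255 and not all exceeded 0.1. The data thus gave no ground for pairing genotypes, although the block of the knockout comparisons treated same numbers as shared. Limits at a count of 0 cover counting error only, while SE and SD also hold the spread among libraries. Promoter sequences are from RefSeq on GRCm38.p6, and proteins were not used here.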

Additional observations from a re-analysis of the deposited data

Results flagged for a closer look

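These results are values where the knockout effect differed between subsets by a test of the difference itself (edgeR quasi-likelihood test, BH-adjusted p under 0.05). Between GFP-positive bone and marrow 2 S-phase and 6 mitotic members differed, among them Mcm6 by 0.71, Mcm4 by 0.64, Top2a by 1.16 and Cenpf by 2.58 on the log2 scale, where 10.8% of all genes were higher and 7.6% lower; the S-phase count is near that share. Between GFP-negative bone and marrow 1 S-phase member, Tyms (-0.68), and 1 mitotic member, Cdc20 (-0.83), differed, near the 3.31% of all genes that were lower. The call of Tyms was lost in each of the 12 fits that left out 1 library and with a replicate block, and that of Cdc20 in 8 of the 12. Between GFP-positive and GFP-negative bone 3 S-phase and 12 mitotic members differed, among them Mcm6 by 1.12, Mcm4 by 0.89, Cdc20 by 1.63 and Top2a by 1.55, where 4.98% of all genes were higher and 1.11% lower. The positive values mean that the knockout libraries stood higher against their controls in GFP-positive bone than in the other subset.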

How the results depend on the processing

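Leaving out 1 library at a time, members lower in the knockout numbered 11 to 19 S-phase and 12 to 16 mitotic in marrow, 7 to 14 and 7 to 11 in GFP-positive bone, and 16 to 17 and 16 to 18 in GFP-negative bone. Members higher numbered 0 to 1 mitotic in marrow, and 1 to 2 S-phase and 4 to 6 mitotic in GFP-positive bone. Differences of knockout effect numbered 1 to 4 S-phase and 4 to 8 mitotic between GFP-positive bone and marrow, 0 S-phase and 0 to 3 mitotic between GFP-negative bone and marrow, and 2 to 4 and 7 to 13 between the bone subsets. In the control comparisons they numbered 5 to 9 and 11 to 13 for GFP-positive bone against marrow, 2 to 5 and 7 to 9 for GFP-negative bone against marrow, and 2 to 5 and 3 to 7 between the bone subsets. The mitotic differences between the bone subsets were 7 without control GFP-positive bone replicate 1, and the control S-phase counts were 5 without marrow replicate 1 and 2 without GFP-negative bone replicate 3. S-phase differences between GFP-positive bone and marrow were 4 without knockout marrow replicate 1 and 1 without knockout GFP-positive bone replicate 2. Between the control bone subsets, 2 S-phase and 3 mitotic members were called without GFP-positive bone replicate 3, and 3 mitotic without GFP-negative bone replicate 1. S-phase members in GFP-positive bone were 7 lower and 2 higher without knockout replicate 1.

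With library totals alone, S-phase members higher in GFP-positive bone numbered 0, mitotic differences from marrow 3 for GFP-positive bone, and 12 S-phase and 10 mitotic for GFP-negative bone. Control counts were then 2 mitotic for GFP-negative bone against marrow, and 0 S-phase and 10 mitotic between the bone subsets. With length correction, alone or with the block, 2 mitotic members were higher in GFP-positive bone, and 1 S-phase member differed between GFP-positive bone and marrow with the correction alone. With no filter, 1 S-phase member differed between GFP-positive bone and marrow, 0 between GFP-negative bone and marrow, and 1 between the control bone subsets. Mcm6 in GFP-positive bone, 0.04 and not called, turned to -0.34 with library totals alone, -0.35 with length correction and -0.34 with both block and length correction. It was not called lower with the correction by merged exon length. The cause of these changes was not tested.

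With the replicate block for the assumed pairing of subsets, 0 S-phase and 2 mitotic members differed between GFP-negative bone and marrow. Block and length correction together gave 2 and 3 there, and 8 mitotic members between the control bone subsets. The block lost the call of Tyms, and gained those of Kif23, Aurka, Plk1, Ccnb2, Birc5, Nusap1 and Cdk1 named in the comparisons above. It changed no other call of a member. DESeq2 gave 16 S-phase and 14 mitotic members lower in marrow, 11 and 8 in GFP-positive bone and 16 and 16 in GFP-negative bone. Depth limits Mki67, Cenpf and Cenpe most, whose control counts were as low as 0, 11 and 10 in a library.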
